A study of Mus musculus with 16 samples.

Results

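The comparison described here is of RNA precipitated with tagged astrocyte ribosomes (IP) against the cleared lysate it was taken from (input), in the hippocampus of 4 mice. It uses 8 of the 16 libraries of the series, the 4 hippocampal IPs and the 4 hippocampal inputs, chosen by region and fraction as given in the sample labels. The other 8 are the striatal IP and input of the same animals. They enter the scaling factors, the filter for tested genes, the estimate of the spread and the comparison between regions. Every gene with a deposited value was eligible: each library lists 24060 gene labels, and 13470 of them were tested.

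All 4 groups came from the same animals, numbered 970, 971, 974 and 977, adults at postnatal day 63. Each carried 1 copy of an Aldh1l1-creERT2 transgene and was heterozygous for the Ribotag allele, on a background of FVB crossed back to C57/Bl6N for 3 generations (about 88% C57/Bl6N). Males and females were used, and the sex of a given animal was not in the labels. The Ribotag allele carries a hemagglutinin (HA) epitope on the ribosomal protein Rpl22 that is switched on by Cre, and creERT2 is a form of Cre that acts only after a drug such as tamoxifen binds it. The inducing treatment is not given in the sources used here. The cells tagged are those in which the Aldh1l1 promoter of the transgene is active, so the IP is a sample of those cells' ribosomes and not of astrocytes sorted by any other means. There was no mouse without Cre and no precipitation without antibody among the libraries used here, so the level of untagged RNA carried along has no control of its own.

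Astrocytes are the glia that wrap synapses and blood vessels. They take up glutamate, GABA and potassium, convert glutamate to glutamine, store glycogen, export lactate and lipoproteins, and are joined to each other by gap junctions. Translating ribosomes hold mRNA, so precipitating them from one cell type yields that cell type's ribosome-bound mRNA without dissociating the tissue. In a bulk lysate, fewer cells of a type and less RNA per cell cannot be told apart, and a gene's difference between IP and input depends both on how much of it tagged cells have and on how much all other cells have.

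The sequence just before the start of the Aldh1l1 gene, whose promoter drives the Cre, is shown to place the tagged cells' marker on the genome. It is the 250 bases upstream of a RefSeq transcript start (GRCm38.p6), chr6:90550543-90550792, written 5′ to 3′ on the plus strand, with capitals for the CCAAT box (CCAAT, here as its reverse complement ATTGG).
Aldh1l1: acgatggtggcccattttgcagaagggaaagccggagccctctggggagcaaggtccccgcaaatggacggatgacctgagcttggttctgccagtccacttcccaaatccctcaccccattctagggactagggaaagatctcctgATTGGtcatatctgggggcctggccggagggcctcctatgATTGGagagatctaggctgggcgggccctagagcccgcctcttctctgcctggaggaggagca

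The stretch holds 2 such matches, both on the reverse strand. The RefSeq gene span begins at 90550768, so the last 25 bases lie in it, and the first protein-coding transcript of GENCODE M21 begins at 90550789. GENCODE also lists a noncoding transcript from 90486427 in whose intron the stretch lies, and its gene span, given below, begins there. Searched on both strands, CCAAT was present in the 250 bases of 36.2% of the 9838 tested genes with a RefSeq promoter, in 38.9% of 185 genes called higher in IP by more than 3 on the log2 scale and in 27.0% of 159 called lower by more than 3. The cyclic AMP response element TGACGTCA was present in 2.88%, 1.62% and 5.03% of the same sets, and TTGGCA, the core of nuclear factor I sites, in 9.93%, 10.3% and 6.29%. These shares are descriptions of letters in a window and were not tested.

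The hippocampal inputs had an estimated depth of 8.86 to 12 M counted fragments and the IPs one of 18.5 to 22.2 M, read from the step size of low values, so that low genes were measured more finely in IP. The 100 genes with the highest values made up 19.8 to 21.6% of all FPKM in the inputs and 36.9 to 40.8% in the IPs. FPKM, fragments normalised to gene length and library size, was therefore divided by a trimmed-mean factor, 1.157 to 1.188 in the inputs and 0.777 to 0.898 in the IPs. Levels below are such scaled FPKM, as means of 4 animals, and values of the form 4.29 ± 0.19 are log2 differences of IP minus input on log2(scaled FPKM + 1) with their standard error from limma, with 4 IPs against 4 inputs. This scale understates the change of genes near or below 1. A gene is called, or said to have risen or fallen, at an adjusted p under 0.05 by limma with Benjamini-Hochberg adjustment over all 13470 genes.

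By that rule 3853 genes (28.6%) were higher in IP, 4993 (37.1%) were lower and 4624 did not pass. The median difference of all genes was -0.15, the 10th percentile -1.53 and the 90th 1.37, with a median standard error of 0.17. Of the calls, 43.6% were higher and 56.4% lower; with FPKM left unscaled they were 26.0% and 74.0%, and the median of all genes moved from -0.15 to -0.51. The side on which a small difference falls is thus set by the scaling, and differences below are to be read against the median of all genes. The direction was the same in all 4 animals for 99.0% of called genes. The calls were made from these same libraries, so this share is no separate check. Beyond 1 on the log2 scale lay 1972 rises (14.6%) and 2464 falls (18.3%), and beyond 2 lay 735 rises (5.46%) and 846 falls (6.28%). Beyond 3 lay 237 rises (1.76%) and 230 falls (1.71%), and beyond 4 lay 27 rises (0.200%) and 24 falls (0.178%). Genes called higher made up 24.5 to 25.9% of all FPKM in the inputs and 68.7 to 73.0% in the IPs, and genes called lower 50.2 to 51.6% and 10.3 to 13.2%.

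**Figure D1:**
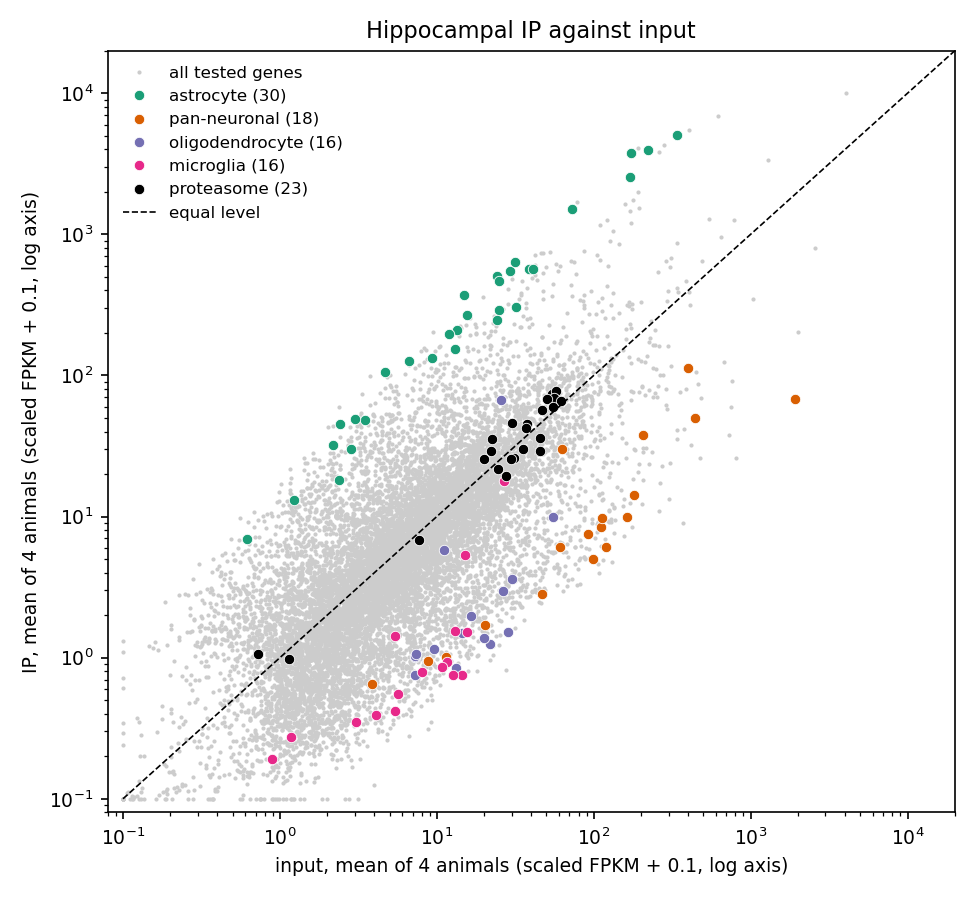
Mean level of each tested gene in hippocampal input (x axis) and IP (y axis), in scaled FPKM + 0.1 on log axes, 4 animals each. Coloured points are marker lists with their number of tested members: all 30 astrocyte markers lie above the line of equal level, all 18 pan-neuronal markers lie below it, and the 23 proteasome genes (black) lie near it.

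The driver gene itself was read first. Aldh1l1 lies on chromosome 6 from 90486427 to 90600203 on the plus strand (GRCm38, GENCODE M21) and encodes a folate enzyme of astrocytes. It stood at 6.5, 4.09, 3.43 and 4.28 in the inputs of animals 970, 971, 974 and 977 and at 119, 107, 95.7 and 104 in their IPs, an order kept for all values below. The groups did not overlap, as for 4158 genes (30.9%) with every IP above every input, and the difference was 4.29 ± 0.19 (adjusted p = 2.22e-11). Input of 970 was the highest of the inputs, and IP of 970 the highest of the IPs. Rpl22 lies on chromosome 4 from 152325742 to 152334071 on the plus strand and is the gene that carries the tag. It stood at 3.9, 3.95, 4.05 and 3.96 in the inputs and 3.05, 3.36, 3.21 and 3.66 in the IPs (-0.20 ± 0.11, adjusted p = 0.104); with unscaled FPKM, and with factors from genes above 1 FPKM, it was called lower. Gene values do not separate the tagged from the untagged transcript, so Rpl22 is no check of recombination. Its paralog gene Rpl22l1 went from 52.3 to 17.4 (-1.54 ± 0.17). The region was checked as well: the hippocampal pyramidal marker Spink8 stood at 35.8 in hippocampal and 6.29 in striatal input.

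The genes with the highest levels differed between the fractions. In input, after the ribosomal RNA precursor Rn45s, the list was led by the nuclear RNA Malat1 (2576), the calmodulin gene Calm2 (1997) and Snap25 (1927). Each of those 3 fell, Calm2 to 202 (-3.28 ± 0.22). In IP, after Rn45s, the list was led by the protease inhibitor gene Cst3 (6861), the peptide-processing gene Cpe (5503), the glutamate transporter gene Slc1a2 (5049) and the matricellular gene Sparcl1 (4302). Rn45s rose from 4048 to 10000.2 (1.34 ± 0.53), a call lost under 11 of 22 other settings (adjusted p 0.0509 to 0.205). It is rRNA and not mRNA, and its part in the other values was not tested. Mir6236, also high in both fractions, stood at 1318, 1444, 601 and 1789 in the inputs and 3666, 3578, 3192 and 3016 in the IPs and did not pass (1.49 ± 0.83, adjusted p = 0.129), although every IP was above every input; with the 8 hippocampal libraries alone it was called higher (1.65, adjusted p = 0.00058). Genes high in both fractions included Gapdh (from 544 to 1285 (1.23 ± 0.22)) and the mitochondrial ATP synthase gene Atp5b (from 778 to 1254 (0.69 ± 0.15)), the latter not called with unscaled FPKM.

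Genes of transmitter and ion transport by astrocytes are described first. Slc1a2 and Slc1a3 encode the 2 main glial glutamate transporters. Slc1a2 was 401, 319.7, 336 and 305 in the inputs and 6018, 5488, 4209 and 4482 in the IPs (3.88 ± 0.20, adjusted p = 9.98e-11). Slc1a3 was 86.8, 67.5, 68.7 and 66.1 and 1654, 1656, 1302 and 1439 (4.37 ± 0.16, adjusted p = 7.29e-12). Neither gene's groups overlapped, and animal 970 was the highest in both fractions for Slc1a2, with IPs 970 and 971 above 974 and 977. The GABA transporter gene Slc6a11 rose from 31.5 to 640.1 (4.30 ± 0.38). Atp1b2, a beta subunit of the sodium pump, rose from 178 to 1740.3 (3.27 ± 0.18). The potassium channel genes Kcnj10 and Kcnj16, whose products form the inward rectifier of astrocytes, rose from 42.1 to 605 (3.81 ± 0.18) and from 4.09 to 45.97 (3.20 ± 0.21). The water channel gene Aqp4 rose from 38.6 to 568 (3.85 ± 0.24), and the gap junction genes Gja1 and Gjb6 from 29.2 to 551 (4.20 ± 0.17) and from 13.01 to 155 (3.47 ± 0.16).

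Several enzyme genes rose as well. Acsbg1, an acyl-CoA synthetase, had the largest rise under the rule for naming genes, with 17.8, 15.1, 13.4 and 12.7 in the inputs and 407, 414, 325 and 353 in the IPs (4.58 ± 0.17, adjusted p = 7.29e-12). Glul, glutamine synthetase, which turns glutamate and ammonia to glutamine, rose from 220.1 to 3970.3 (4.16 ± 0.22). Glud1, glutamate dehydrogenase, rose from 191 to 1993 (3.37 ± 0.13). Phgdh, the first enzyme of serine synthesis, rose from 8.17 to 156 (4.09 ± 0.33). Glycogen phosphorylase had 2 forms that rose, Pygm from 2.28 to 59.7 (4.23 ± 0.18) and Pygb from 34.2 to 371 (3.40 ± 0.17); the level of Pygb stayed above that of Pygm in both fractions. Lipid synthesis was represented by the desaturase genes Fads2 (from 30.3 to 523 (4.06 ± 0.16)) and Scd2 (from 159 to 1645 (3.36 ± 0.19)). Pla2g7, a secreted phospholipase that cleaves platelet-activating factor, rose from 32.8 to 645 (4.25 ± 0.18).

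Genes of several secreted proteins also rose. Apoe, the lipid carrier of brain lipoproteins, was 231, 206, 136 and 192 in the inputs and 4565, 4442, 3546 and 3749 in the IPs (4.42 ± 0.37, adjusted p = 2.60e-08); input 974 was the lowest input and IP 974 the lowest IP. Clu, another apolipoprotein, rose from 179 to 3807 (4.40 ± 0.16). Agt, the precursor of angiotensin, rose from 3.65 to 99.2 (4.44 ± 0.40), the phagocytosis bridge gene Mfge8 from 9.4 to 203 (4.30 ± 0.20), the serine protease gene Htra1 from 19.6 to 357 (4.12 ± 0.17) and the protease inhibitor gene Serpine2 from 42.1 to 712 (4.05 ± 0.13). Myoc, myocilin, rose from 4.72 to 97.6 (4.10 ± 0.28). Cst3 was 663, 674, 449 and 686 in the inputs and 7329, 8114, 5376 and 6627 in the IPs (3.47 ± 0.24), and Sparcl1 rose from 279.5 to 4302 (3.93 ± 0.16). Receptors with large rises were Gpr37l1 (from 24.2 to 503 (4.33 ± 0.25)), Lrp4 (from 3.24 to 73.4 (4.13 ± 0.12)) and the neurotensin receptor gene Ntsr2 (from 40.96 to 564 (3.74 ± 0.26)).

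The largest fall under the rule for naming genes was that of Sst. Sst lies on chromosome 16 from 23889573 to 23890958 on the minus strand and encodes the neuropeptide somatostatin. Sst was 443, 361, 338 and 347 in the inputs and 10.8, 5.49, 11.7 and 7.78 in the IPs (-5.27 ± 0.31, adjusted p = 3.34e-10). Snap25, which drives fusion of synaptic vesicles, was 1909, 1853, 2036 and 1912 and 57.8, 52.6, 96.7 and 66.6 (-4.83 ± 0.25, adjusted p = 8.46e-11), with IP 974 above the other 3. In both genes every IP was below every input, as for 5265 genes (39.1%). Vsnl1, a neuronal calcium sensor, fell from 812 to 25.8 (-4.94 ± 0.28). Of genes of the presynaptic terminal, Basp1 fell from 129.9 to 4.7 (-4.54 ± 0.26), Cplx1 from 156 to 7.22 (-4.26 ± 0.18) and the calcium sensor gene Syt1 from 99.0001 to 4.94 (-4.11 ± 0.24). The proton pump subunit Atp6v1g2 fell from 475 to 25.9 (-4.15 ± 0.17) and the G protein subunit Gng3 from 176 to 8.27 (-4.26 ± 0.16). Gabra5, a GABA receptor subunit of hippocampal pyramidal neurons, fell from 111 to 6.12 (-4.03 ± 0.32).

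**Figure D2:**
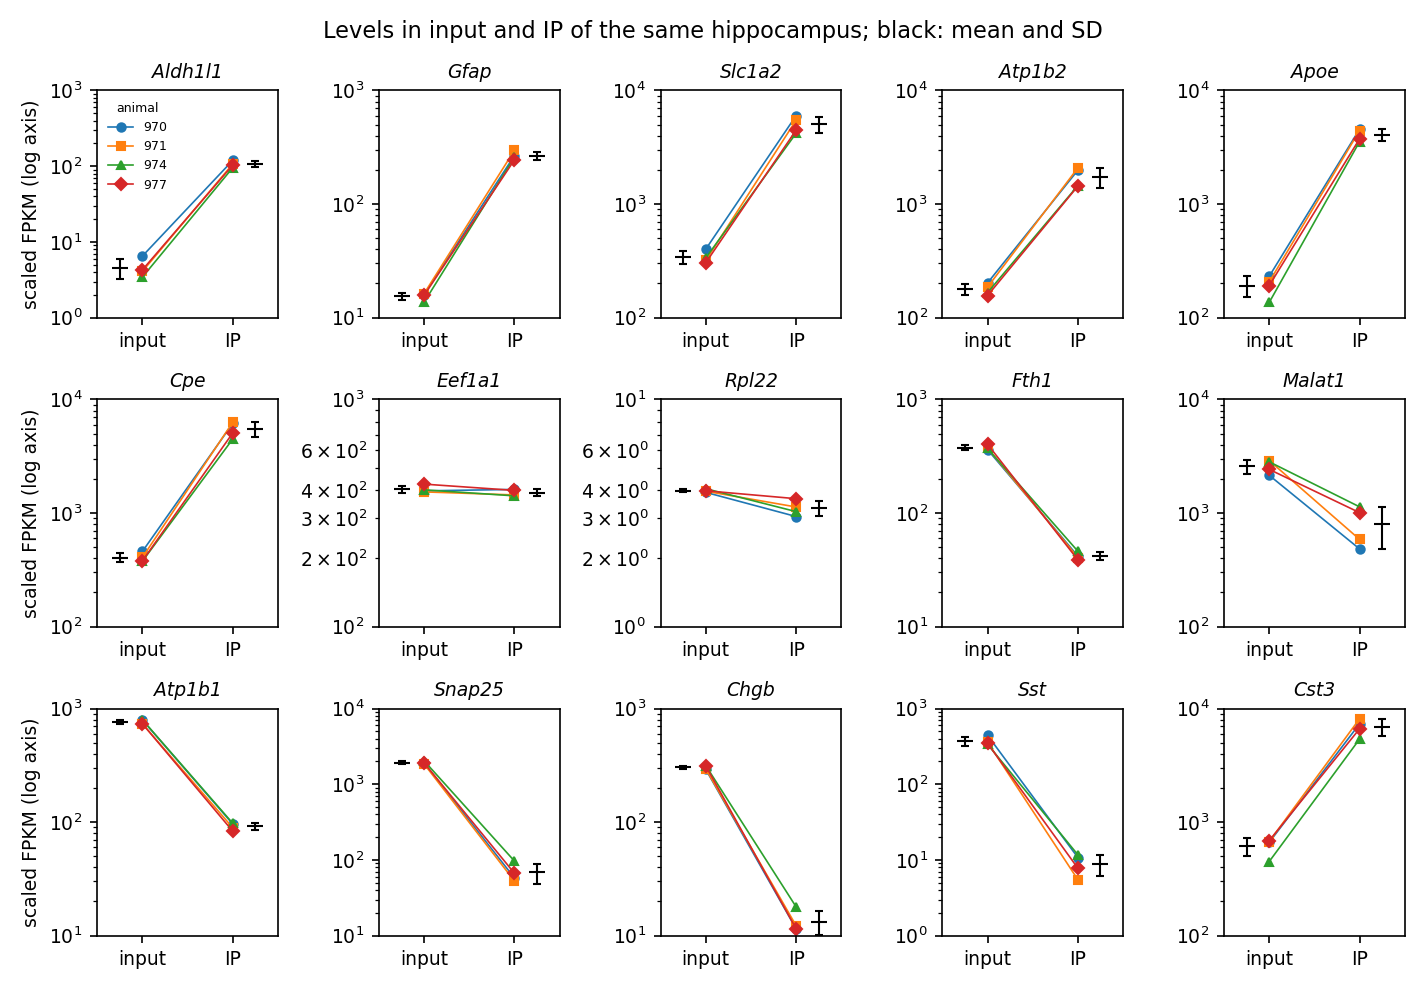
Scaled FPKM (log axes, each panel with its own range) of 15 genes in input and IP of the same animal, joined by a line, with mean and SD of 4 animals in black beside them. Aldh1l1, Gfap, Slc1a2, Atp1b2, Apoe, Cpe and Cst3 rise in all 4 animals; Fth1, Malat1, Atp1b1, Snap25, Chgb and Sst fall in all 4; Eef1a1 and Rpl22 stay within a narrow range.

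Marker lists were read for astrocytes and for other cells. Members of these and of the later lists were chosen with earlier results of these data known. Their counts are thus descriptions and no separate check. All 30 astrocyte markers rose, with a median of 3.86 and a range of 2.37 to 4.58, against 28.6% of all tested genes. Their summed level was 1198 to 1611 in the inputs and 19212 to 26342 in the IPs. Gfap, the intermediate filament gene, was 15.9, 16.3, 13.7 and 15.7 and 268, 298, 259 and 245 (4.03 ± 0.22, adjusted p = 1.98e-10), and the transcription factor gene Sox9 rose from 13.4 to 208 (3.87 ± 0.13). The smallest rise was that of Cyp4f14 (from 0.513 to 6.84 (2.37 ± 0.15)), which is near 1 FPKM in input. Of 18 pan-neuronal markers all 18 fell (37.1% of all genes did), with a median of -3.28. Their summed level went from 3983 to 4135 in the inputs to 334 to 419 in the IPs. Map2, the dendritic microtubule protein gene, fell least (from 62.3 to 29.9 (-1.04 ± 0.13)), followed by the RNA-binding gene Elavl4 (from 3.77 to 0.547 (-1.62 ± 0.13)) and Vamp2, of the synaptic vesicle (from 397 to 112 (-1.81 ± 0.13)).

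The level of neuronal markers in IP relative to input differed between animals. As the median over the 18 markers of IP in percent of input, it was 6.41% in 970, 6.03% in 971, 11.9% in 974 and 9.25% in 977. The excitatory neuron markers gave 5.24%, 5.07%, 12.3% and 7.90%, and the oligodendrocyte markers 7.79%, 7.39%, 16.5% and 12.04%. In each of these lists 974 was highest and 971 lowest. IPs 974 and 977 also had the larger scaling factors of the IPs. How much of this level is RNA carried along from other cells was not tested, nor was its part in the differences. The counts without each library are given in the closing section.

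Markers of each class of hippocampal neuron fell, with few exceptions. The shares over all tested genes were 37.1% lower and 28.6% higher. Of excitatory markers 0 of 9 were higher, 9 were lower and 0 did not pass, with a median of -3.54: the vesicular glutamate transporter gene Slc17a7 fell from 183 to 13.4 (-3.73 ± 0.31) and the calcium sensor gene Hpca from 134 to 7.51 (-3.999 ± 0.27). Among dentate granule markers 1 of 8 were higher, 7 were lower and 0 did not pass, with a median of -1.59. C1ql2 fell from 8.998 to 0.512 (-2.70 ± 0.13), Calb1 from 22.3 to 2.37 (-2.83 ± 0.23) and the transcription factor gene Prox1 from 42.5 to 14.5 (-1.49 ± 0.17). The exception was the desmosome gene Dsp, which rose from 5.7 to 13.6 (1.08 ± 0.20). Of CA1 markers 0 of 6 were higher, 6 were lower and 0 did not pass, with a median of -2.29, with Spink8 falling from 35.8 to 1.76 (-3.75 ± 0.33) and Wfs1 from 39.5 to 28.1 (-0.48 ± 0.15); without animal 977 Wfs1 did not pass. Of CA2 and CA3 markers 0 of 10 were higher, 9 were lower and 1 did not pass, with a median of -1.46; Pcp4 fell from 109 to 3.87 (-4.54 ± 0.32) and Cpne4 from 46.1 to 2.33 (-3.87 ± 0.22), and Pvrl3 did not pass (from 12.2 to 11.3 (-0.10 ± 0.15)). Interneuron markers all fell, 14 of 14, with a median of -2.83. After Sst, the largest were Cck (from 259 to 10.9 (-4.48 ± 0.27)), the GABA-synthesis gene Gad2 (from 78.1 to 3.18 (-4.26 ± 0.26)) and Npy (from 27.5 to 0.714 (-4.07 ± 0.24)).

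Markers of other glia and of vessel cells were less even. Their counts are to be read against 28.6% higher and 37.1% lower of all tested genes. Of oligodendrocyte markers 1 of 16 were higher, 15 were lower and 0 did not pass, with a median of -2.52. Mal, a myelin proteolipid gene, fell from 28.5 to 1.43 (-3.61 ± 0.18) and Mbp, myelin basic protein, from 30.1 to 3.52 (-2.86 ± 0.34), while Cnp, a myelin enzyme gene, rose from 25.4 to 66.9 (1.36 ± 0.18). Of precursor markers 2 of 10 were higher, 6 were lower and 2 did not pass, with a median of -0.97: Pdgfra, the receptor that defines these cells, fell from 3.05 to 0.355 (-1.59 ± 0.12) and Gpr17 from 5.86 to 0.635 (-2.09 ± 0.19), whereas the transcription factor genes Olig1 and Olig2 rose, from 23.7 to 70.9 (1.52 ± 0.22) and from 6.17 to 15.6 (1.15 ± 0.27). Among microglia markers 0 of 16 were higher, 15 were lower and 1 did not pass, with a median of -2.22. C1qc fell from 14.3 to 0.648 (-3.25 ± 0.20) and Ctss from 12.6 to 0.65 (-3.07 ± 0.16). Of endothelial markers 1 of 11 were higher, 9 were lower and 1 did not pass, with a median of -1.08; the tight junction gene Cldn5 fell from 1.48 to 0.163 (-1.08 ± 0.28), and the glucose transporter gene Slc2a1 rose from 20.8 to 108 (2.32 ± 0.23). Of mural cell markers 3 of 9 were higher, 5 were lower and 1 did not pass, with a median of -0.66; of the 5 left by a filter of 5 FPKM, 3 were higher and 2 lower, with a median of 1.22. Rgs5 fell from 24.99 to 2.61 (-2.87 ± 0.29) and Vtn from 11.8 to 1.73 (-2.25 ± 0.19), but Pdgfrb rose from 1.11 to 10.1 (2.40 ± 0.14), Myl9 from 2.46 to 9.31 (1.61 ± 0.20) and Notch3 from 0.894 to 3.42 (1.22 ± 0.12).

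Markers of choroid plexus and meninges varied between animals. Ttr, the transthyretin gene and the leading marker of choroid plexus, was 0.626, 1.26, 1.83 and 10.1 in the inputs and 1.63, 2.28, 14.8 and 65.4 in the IPs, so animal 977 was highest in both fractions, and the groups overlapped (1.57 ± 0.81, adjusted p = 0.099); it was called higher without IP 970, IP 971 or input 977 (2.10 to 2.21, adjusted p 0.0248 to 0.0389). IP was above input in each of the 4 animals, and the 8 hippocampal libraries with the animal as a block called Ttr higher (1.69, adjusted p = 0.0162). Ptgds, made by meninges and choroid plexus, was 162, 237, 126 and 330.5 and 37.1, 101, 32.96 and 331, again highest in 977 (-1.30 ± 0.64, adjusted p = 0.0869); without IP 977 it was called lower (-1.98, adjusted p = 0.00515), as it was with the animal as a block (-1.30, adjusted p = 0.0291). Of 9 choroid plexus markers 4 were tested, of which 0 rose, 2 fell and 2 did not pass. Among all tested genes 28.6% rose and 37.1% fell. The chemerin gene Rarres2, listed with ependyma, rose from 1.18 to 9.25 (2.24 ± 0.24), and Foxj1, the factor of ciliated cells, did not pass (from 1.08 to 1.27 (0.08 ± 0.24)). Of the markers of hippocampal radial glia-like stem cells, 4 of 5 tested rose, among them Sox2 from 3.14 to 51.1 (3.66 ± 0.20), Hopx from 7.12 to 55.2 (2.79 ± 0.11) and Thrsp from 29.3 to 173 (2.50 ± 0.19), and Lpar1 fell from 1.69 to 0.369 (-0.95 ± 0.16). Sox2 and Hopx are also expressed by astrocytes of the adult brain. Of the newborn neuron markers 3 of 4 fell, with Neurod1 falling from 13.2 to 1.09 (-2.78 ± 0.15) and Dcx from 1.7 to 0.408 (-0.94 ± 0.14), and Sox4 rose from 1.3 to 2.55 (0.63 ± 0.20), a call lost unscaled and without animal 971.

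**Figure D3:**
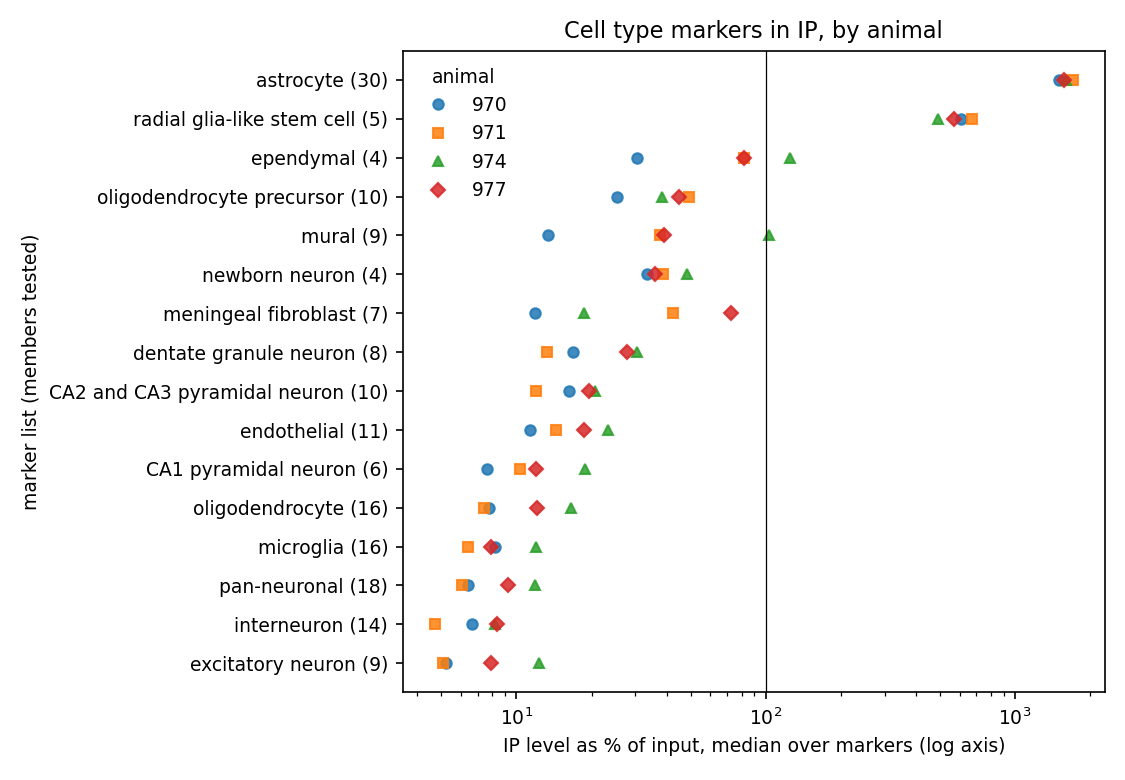
IP level in percent of input (log axis), as the median over the tested markers of each cell type list, for each animal, with the line at 100% marking equal level. Astrocyte markers lie far to the right in all 4 animals, pan-neuronal, oligodendrocyte and microglia markers lie far to the left, and animal 974 is the highest of the 4 in these 3 lists.

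Transcription factors known from astrocytes rose without exception, 24 of 24, with a median of 2.36. Of all tested genes 28.6% rose and 37.1% fell, and this list too was chosen with earlier results known. The largest rises were those of Sox2, of the homeobox gene Dbx2 (from 3.88 to 51.6 (3.43 ± 0.18)) and of Id3 and Id4, inhibitors of basic helix-loop-helix factors (from 9.73 to 111 (3.38 ± 0.16) and from 8.62 to 99.1 (3.38 ± 0.21)). The factor gene Rfx4 rose from 2.72 to 34.1 (3.24 ± 0.14) and Lhx2 from 20.4 to 131 (2.63 ± 0.18). Nuclear factor I genes, needed for astrocyte formation, rose less: Nfia from 12.6 to 48.7 (1.87 ± 0.21), Nfix from 16.8 to 31.3 (0.86 ± 0.15) and Nfib from 6.7 to 11.8 (0.73 ± 0.14). The Notch targets Hes5 and Hey1 rose from 2.172 to 16.6 (2.41 ± 0.34) and from 28.6 to 84.8 (1.53 ± 0.13). Of neuronal factors 0 of 16 were higher, 14 were lower and 2 did not pass, with a median of -2.20. The activity-induced gene Egr1 fell from 59.6 to 4.11 (-3.55 ± 0.28) and Neurod6 from 68.01 to 5.04 (-3.54 ± 0.22). The forebrain patterning gene Fezf2 did not pass (from 33.6 to 42.1 (0.32 ± 0.19)) but was called higher with the 8 hippocampal libraries alone (0.48, adjusted p = 0.000448).

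Regulators of RNA were divided. Of 21 RNA-binding and splicing genes, 5 (23.8%) rose and 16 (76.2%) fell, against 28.6% and 37.1% of all tested genes. The risers were Qk, which controls splicing and mRNA transport in glia (from 34.1 to 221 (2.66 ± 0.21)), the stem cell factors Msi1 (from 6.03 to 40.1 (2.55 ± 0.33)) and Msi2 (from 28.05 to 114 (1.98 ± 0.15)), and the splicing repressors Ptbp1 (from 2.05 to 10.7 (1.94 ± 0.16)) and Ptbp2 (from 18.6 to 26.9 (0.50 ± 0.16)); the call of Ptbp2 was lost unscaled and without animal 970 or 971. Rbfox1, a neuronal splicing factor gene, fell from 81.6 to 5.004 (-3.80 ± 0.30), Celf4 from 40.6 to 3.78 (-3.16 ± 0.23) and the neuronal splicing activator gene Srrm4 from 17.95 to 2.73 (-2.36 ± 0.13).

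Most genes of secretory peptides fell. Of 20 neuropeptide, granin and convertase genes, 17 fell, 2 rose and Pdyn did not pass (from 1.24 to 1.71 (0.24 ± 0.17)). Chgb, a granin of dense-core vesicles, was 291, 294, 314 and 312 in the inputs and 11.5, 12.2, 17.9 and 11.5 in the IPs (-4.43 ± 0.18, adjusted p = 1.10e-11), and the convertase gene Pcsk2 fell from 37.3 to 3.24 (-3.23 ± 0.23). Cpe, the carboxypeptidase that trims peptide precursors, was 459.7, 407, 377 and 379.6 and 6156, 6298, 4487 and 5072 (3.75 ± 0.18, adjusted p = 4.12e-11). Scg3, a granin, rose from 40.5 to 491 (3.56 ± 0.23). In IP, Cpe stood below only Rn45s and Cst3, while the convertase genes Pcsk1 and Pcsk2 were at 0.813 and 3.24.

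Mitochondrial fuel pathways rose in part. All tested genes together had 28.6% higher and 37.1% lower. In breakdown of branched-chain amino acids 16 of 20 were higher, 2 were lower and 2 did not pass, with a median of 1.5. Aldh6a1, of valine breakdown, rose from 14.9 to 128 (3.01 ± 0.19), Bckdha, of the branched-chain dehydrogenase, from 2.94 to 25.3 (2.76 ± 0.33), and the mutase gene Mut from 11.2 to 68.2 (2.49 ± 0.19). Bcat1, the cytosolic aminotransferase that starts the pathway in neurons, fell from 4.63 to 0.621 (-1.80 ± 0.12). In the TCA cycle 15 of 20 were higher, 0 were lower and 5 did not pass, with a median of 0.91. Unscaled, 12 were higher and 3 lower, with a median of 0.42. Suclg2, the GTP-forming subunit of succinyl-CoA synthetase, rose from 2.7 to 42.7 (3.57 ± 0.15), whereas its ATP-forming counterpart Sucla2 did not pass (from 40.3 to 32.4 (-0.32 ± 0.20)). Citrate synthase (Cs) rose from 84.9 to 336 (1.97 ± 0.15) and pyruvate carboxylase (Pcx), which refills the cycle in astrocytes, from 0.991 to 6.8 (1.97 ± 0.16). Fatty acid oxidation was seen in the acyl-CoA dehydrogenase genes Acadl (from 8.11 to 103 (3.50 ± 0.21)), Acadm (from 7.17 to 54.2 (2.75 ± 0.13)) and Acadvl (from 9.79 to 65.9 (2.63 ± 0.17)). The thioesterase and dehydrogenase family as a whole had 13 of 19 higher and 4 lower, led by Acot11 (from 6.59 to 119 (3.99 ± 0.22)), with the neuronal thioesterase gene Acot7 at the other end (from 18.3 to 2.58 (-2.43 ± 0.16)).

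Subunits of the respiratory chain were mixed, and their split moved with the fit. Of 36 complex I subunits 10 were higher, 7 were lower and 19 did not pass, with a median of 0.11, but unscaled FPKM gave 2 higher and 18 lower and the 8 hippocampal libraries alone 19 and 6. The 27.8% that were higher are near the 28.6% of all genes. Ndufc2 rose from 46.03 to 107 (1.21 ± 0.25) and Ndufa5 fell from 36.3 to 21.3 (-0.74 ± 0.16). Nuclear subunits of complexes IV and V gave 9 higher and 8 lower of 33, 3 and 16 unscaled, and 16 and 9 with the 8 libraries. Mitochondrial ribosomal proteins gave 10 and 10 of 77, 0 and 43 unscaled, and 24 and 9 with the 8 libraries.

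Peroxisomes, lysosomes and the endoplasmic reticulum leaned upward. For comparison, 28.6% of all tested genes were higher and 37.1% lower. Of peroxisome genes 18 of 24 were higher, 2 were lower and 4 did not pass, with a median of 1.06 (unscaled 14 and 3, with a median of 0.63). Cat, catalase, rose from 36.7 to 299 (2.99 ± 0.33), Phyh, of branched fatty acid oxidation, from 21.8 to 163 (2.85 ± 0.16), and the transporter gene Abcd2 from 4.86 to 35.6 (2.64 ± 0.15); the neuronal receptor gene Pex5l fell from 14.4 to 1.7 (-2.57 ± 0.23). Of lysosome genes 23 of 25 were higher, 1 were lower and 1 did not pass, with a median of 1.77. The tetraspanin gene Cd63 rose from 5.66 to 53.9 (3.04 ± 0.29), Lamp1 from 71.9 to 437 (2.58 ± 0.12), the cholesterol transporters Npc1 and Npc2 from 14.2 to 82.8 (2.46 ± 0.12) and from 4.78 to 31.4 (2.49 ± 0.18), and the protease gene Ctsd from 86.4 to 303 (1.79 ± 0.23). Of genes for translocation and folding in the endoplasmic reticulum 20 of 26 were higher, 1 were lower and 5 did not pass, with a median of 0.91. Unscaled, 15 were higher and 2 lower, with a median of 0.42. Rpn2, of the glycosylation complex, rose from 17.2 to 58.7 (1.72 ± 0.18) and the disulfide isomerase gene P4hb from 21.3 to 67.9 (1.62 ± 0.26), and the translocon subunits Sec61b and Ssr4 did not pass (from 11.8 to 11.5 (-0.02 ± 0.25) and from 5.9 to 5.76 (-0.03 ± 0.18)). Detoxifying enzymes were read beside these: Gstm1, a glutathione transferase, rose from 261 to 3827 (3.86 ± 0.33), Mgst1 from 5.1 to 47.7 (3.004 ± 0.26), the cytochrome P450 genes Cyp2j9 and Cyp2d22 from 10.2 to 159 (3.84 ± 0.15) and from 3.96 to 63.6 (3.70 ± 0.14), and the retinal dehydrogenase gene Aldh1a1 from 28.3 to 319 (3.39 ± 0.34). In these families 10 of 15 glutathione transferases, 13 of 21 cytochrome P450 genes and 11 of 14 aldehyde dehydrogenases were higher. In the same order 2, 3 and 1 were lower. Unscaled, 8, 11 and 10 were higher and 3, 6 and 2 lower.

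Iron genes went both ways. Of 13 tested 8 were higher and 2 lower; unscaled these were 6 and 5. Fth1, the ferritin heavy chain, was 362, 374, 370.5 and 404 in the inputs and 41.8, 40.6, 46.2 and 38.8 in the IPs (-3.15 ± 0.10, adjusted p = 2.95e-12), and the light chain Ftl1 fell from 73.05 to 33.5 (-1.09 ± 0.39), a call lost under 5 of 22 other settings (adjusted p 0.0514 to 0.0893). The transferrin receptor gene Tfrc rose from 18.6 to 52.6 (1.45 ± 0.15) and the iron-regulated aconitase gene Aco1 from 3.02 to 17.2 (2.20 ± 0.13). Both ferritin genes have pseudogene copies that can take a part of their fragments, so their levels are uncertain. Targets of glucocorticoids were also mixed. Of 14 tested 8 (57.1%) were higher and 5 (35.7%) lower, against 28.6% and 37.1% of all tested genes. Unscaled these were 6 and 5. Mt2, a metallothionein, rose from 110.3 to 1167 (3.39 ± 0.20), Pdk4 from 1.98 to 28.3 (3.30 ± 0.12) and Tsc22d3 from 3.4 to 20.1 (2.26 ± 0.15), while Fkbp5 fell from 8.45 to 1.93 (-1.70 ± 0.17). Of the receptors, Nr3c1 (glucocorticoid) rose from 12.8 to 39.6 (1.56 ± 0.12) and Nr3c2 (mineralocorticoid) fell from 36.2 to 13.95 (-1.32 ± 0.11).

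Genes of contact and shape rose in the main, where 28.6% of all tested genes were higher and 37.1% lower. Of adhesion genes 16 of 22 were higher, 4 were lower and 2 did not pass, with a median of 1.49. Vcam1 rose from 9.65 to 149 (3.81 ± 0.19), the integrin subunits Itgav and Itgb8, which pair to activate TGF-beta, from 6.95 to 78.6 (3.32 ± 0.16) and from 10.96 to 113 (3.26 ± 0.14), and alpha-catenin (Ctnna1) from 10.4 to 97.3 (3.11 ± 0.12); L1cam, of axons, fell from 31.7 to 2.38 (-3.34 ± 0.26) and Cadm3 from 86.5 to 9.33 (-3.09 ± 0.14). Of linkers between membrane and cytoskeleton 14 of 17 were higher, 1 were lower and 2 did not pass, with a median of 2.04. Slc9a3r1, a scaffold for transporters, rose from 7.88 to 149 (4.08 ± 0.26) and Ezr, ezrin of fine astrocyte processes, from 10.3 to 161 (3.84 ± 0.20); the dystrophin complex genes Dag1 and Dtna, of the complex that anchors Aqp4 at vessels, rose from 2.8 to 18.99 (2.39 ± 0.12) and from 5.58 to 28.6 (2.16 ± 0.13). Ank3, the ankyrin of the axon initial segment, fell from 7.48 to 2.39 (-1.36 ± 0.26). The postsynaptic density fell entirely, 16 of 16, with Camk2a falling from 415 to 32.03 (-3.74 ± 0.28) and Dlg4 from 48.8 to 6.74 (-2.69 ± 0.19).

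**Figure D4:**
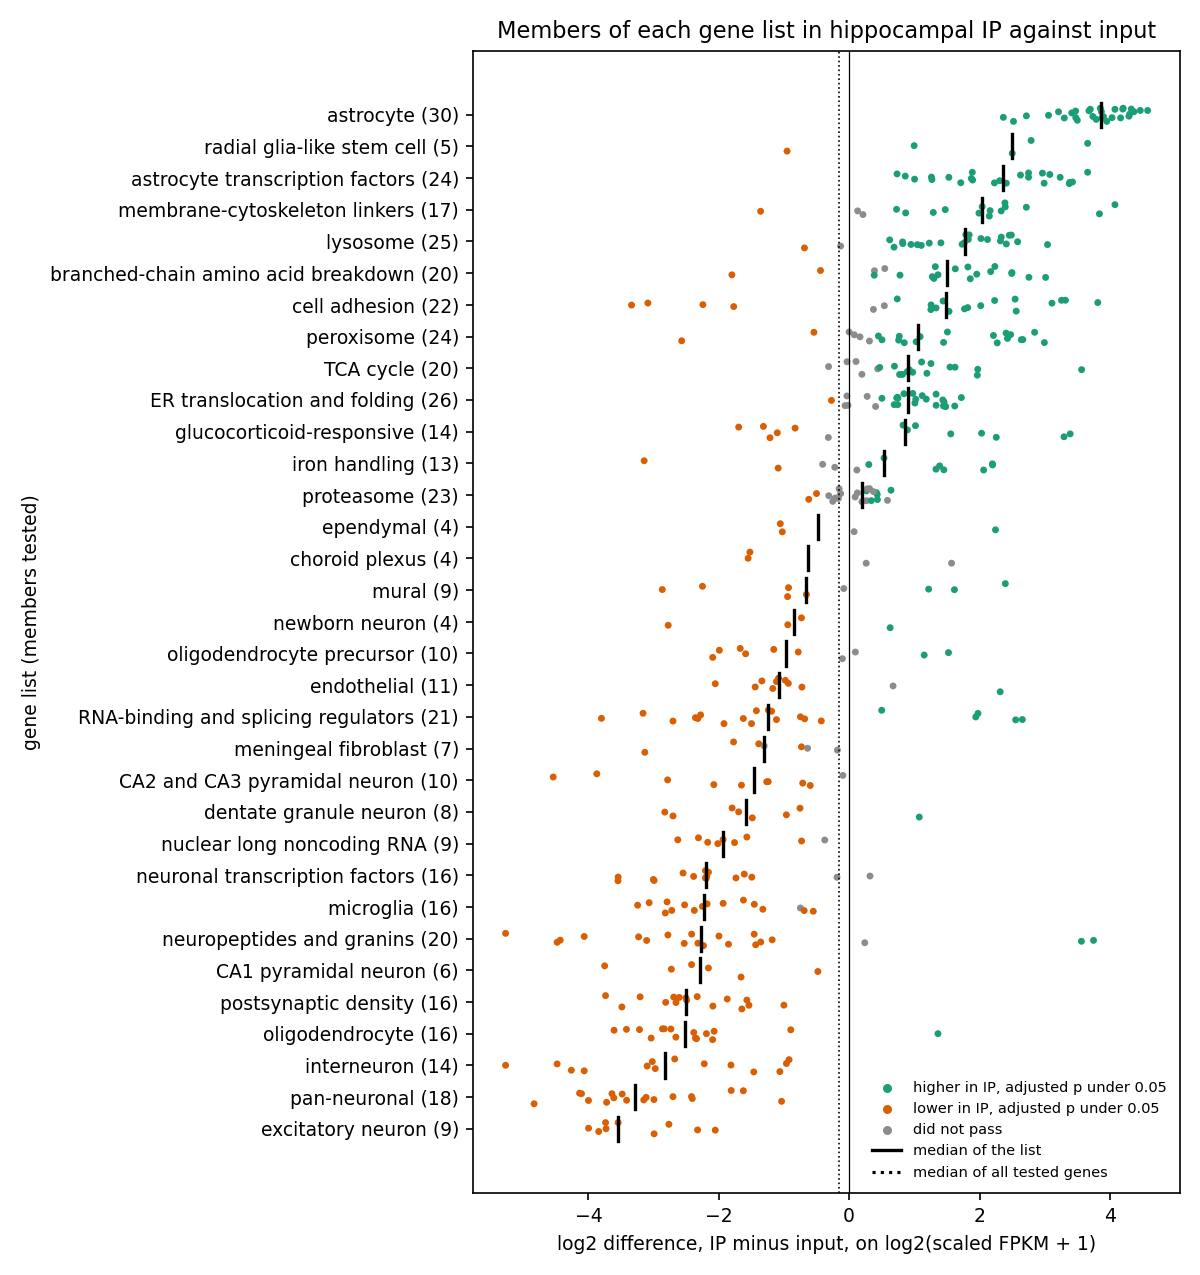
Log2 difference (IP minus input) of each tested member of 33 gene lists, ordered by the median of the list (black bar), coloured by call, with the median of all tested genes as a dotted line. The astrocyte list is at the top with a median of 3.86 and the excitatory neuron list at the bottom with -3.54; lists such as iron handling and cell adhesion span both directions.

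Families defined by gene symbol were read without regard to cell type. Their counts are to be read against the 28.6% of all tested genes that were higher and the 37.1% that were lower. Of 70 potassium channel genes 11 rose and 52 fell, and of 30 voltage-gated sodium and calcium channel genes 1 rose, Cacna2d2 (from 0.995 to 2.02 (0.58 ± 0.17), not called unscaled or without animal 971), and 28 fell. Of 30 glutamate and GABA receptor subunits 6 rose and 21 fell. The risers included Gabrg1 (from 3.8 to 52.4 (3.48 ± 0.20)) and Grin2c (from 2.65 to 29.3 (3.06 ± 0.17)), subunits known in astrocytes. Synaptotagmins fell in 13 of 15, and Syt11, which lacks calcium binding, rose from 119 to 257 (1.11 ± 0.12). Solute carriers were even, 79 higher and 79 lower of 207; unscaled they were 62 and 107. Slc38a3, a glutamine transporter gene, rose from 1.92 to 43.2 (3.92 ± 0.20) and Slc12a5, the chloride exporter of neurons, fell from 55.3 to 4.31 (-3.45 ± 0.26). Of 56 protocadherin genes 31 rose and 9 fell (22 and 15 unscaled), led by Pcdhgc3 (from 13.4 to 199 (3.80 ± 0.27)); members of the gamma cluster share their last exons, so fragments can be split among them. Plxnb1, a semaphorin receptor gene, rose from 8.46 to 152 (4.02 ± 0.17) and Sema5a fell from 30.2 to 3.59 (-2.76 ± 0.30), and ephrins and their receptors had 3 higher and 11 lower of 17.

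Most mRNAs of cytosolic ribosomal proteins were lower in IP, which describes mRNA and not the amount of ribosomes. Among all tested genes 28.6% were higher and 37.1% lower. Of 78 cytosolic ribosomal protein genes 1 was higher, 52 were lower and 25 did not pass, with a median of -0.64; unscaled, 0 were higher and 66 lower. Rpl7, the 1 higher gene, went from 61.1 to 75.3 (0.30 ± 0.09), with a difference of -0.19 unscaled. Rpl17 fell from 152 to 45.6 (-1.72 ± 0.21) and Rps12 from 67.4 to 20.5 (-1.68 ± 0.14). Many of these genes have processed pseudogenes that can take fragments. Nuclear long noncoding RNAs fell in 8 of 9 and hosts of small nucleolar RNAs in 9 of 11. Malat1 was 2152, 2900.3, 2828 and 2424 in the inputs and 484, 587, 1135 and 1009 in the IPs (-1.76 ± 0.40, adjusted p = 0.00103). IPs 974 and 977, where pan-neuronal markers stood at a higher percent of input, were higher in Malat1 than IPs 970 and 971. A link between these was not tested. Meg3 fell from 183 to 29.8 (-2.63 ± 0.27) and Neat1 from 12.4 to 3.7 (-1.57 ± 0.35). Genes of the histone clusters rose in 13 of 25 and fell in 1; Hist1h2bc rose from 12.9 to 64.7 (2.26 ± 0.16).

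Related genes were set side by side in pairs. The first was a form known from astrocytes or, as for Eef1a1 and Rpl22, a form used in most cells. The second was another form, in general one known from neurons or most cells. Pairs were chosen with earlier results of these data known, so the counts are partly fixed by that choice. Of all tested genes 28.6% rose and 37.1% fell. In 34 of 37 pairs both were tested. In 19 the first rose and the second fell, in 10 both rose and in 0 both fell. In 13 pairs the order of the 2 levels turned round between input and IP. Among beta subunits of the sodium pump, Atp1b2 went from 0.232 to 19.0 times the level of Atp1b1, which fell from 764 to 91.5 (-3.05 ± 0.13). The glucose transporter Slc2a1 went from 0.751 to 34.3 times Slc2a3, the form of neurons, which fell from 27.7 to 3.15 (-2.81 ± 0.26). Among lactate transporters Slc16a1 went from 0.356 to 9.97 times Slc16a7. The calcium store channel Itpr2, the form of astrocytes, went from 0.0251 to 1.77 times Itpr1, with Itpr2 rising from 1.26 to 14.05 (2.73 ± 0.14) and Itpr1 falling from 50.3 to 7.94 (-2.55 ± 0.20). Other turns were Ndrg2 over Ndrg4 (0.790 to 83.5 times), Tubb2b over Tubb3 (0.407 to 77.9) and Rab31 over Rab3a (0.237 to 12.3).

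Pairs in which both rose separate forms by degree. Fgfr3 rose from 2.09 to 31.9 (3.41 ± 0.14) and Fgfr1 from 6.34 to 26.5 (1.89 ± 0.16). The monoamine oxidase genes rose from 4.9 to 85.98 (3.88 ± 0.18) for Maob and from 4.9 to 20.7 (1.88 ± 0.13) for Maoa. Both endothelin receptor genes rose, Ednrb from 4.64 to 52.9 (3.26 ± 0.12) and Ednra from 2.92 to 22.98 (2.63 ± 0.26), and both M6 proteolipid genes, Gpm6b from 26.5 to 184 (2.76 ± 0.16) and Gpm6a from 132 to 386 (1.54 ± 0.16). Aldolase behaved otherwise: Aldoc rose from 172 to 3777 (4.47 ± 0.26) and Aldoa did not pass (from 132 to 131 (-0.01 ± 0.20)). Lactate dehydrogenase was alike, with Ldhb rising from 144 to 849.8 (2.55 ± 0.13) and Ldha going from 52.7 to 71.2 (0.40 ± 0.19), which did not pass but was called without IP 974 (0.51, adjusted p = 0.0353) and with the animal as a block (0.40, adjusted p = 0.0216). In vesicle fusion Snap23 rose from 4.2 to 13.5 (1.48 ± 0.23) and Vamp3 from 20.2 to 42.4 (1.03 ± 0.13) while their neuronal kin Snap25 and Vamp2 fell.

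**Figure D5:**
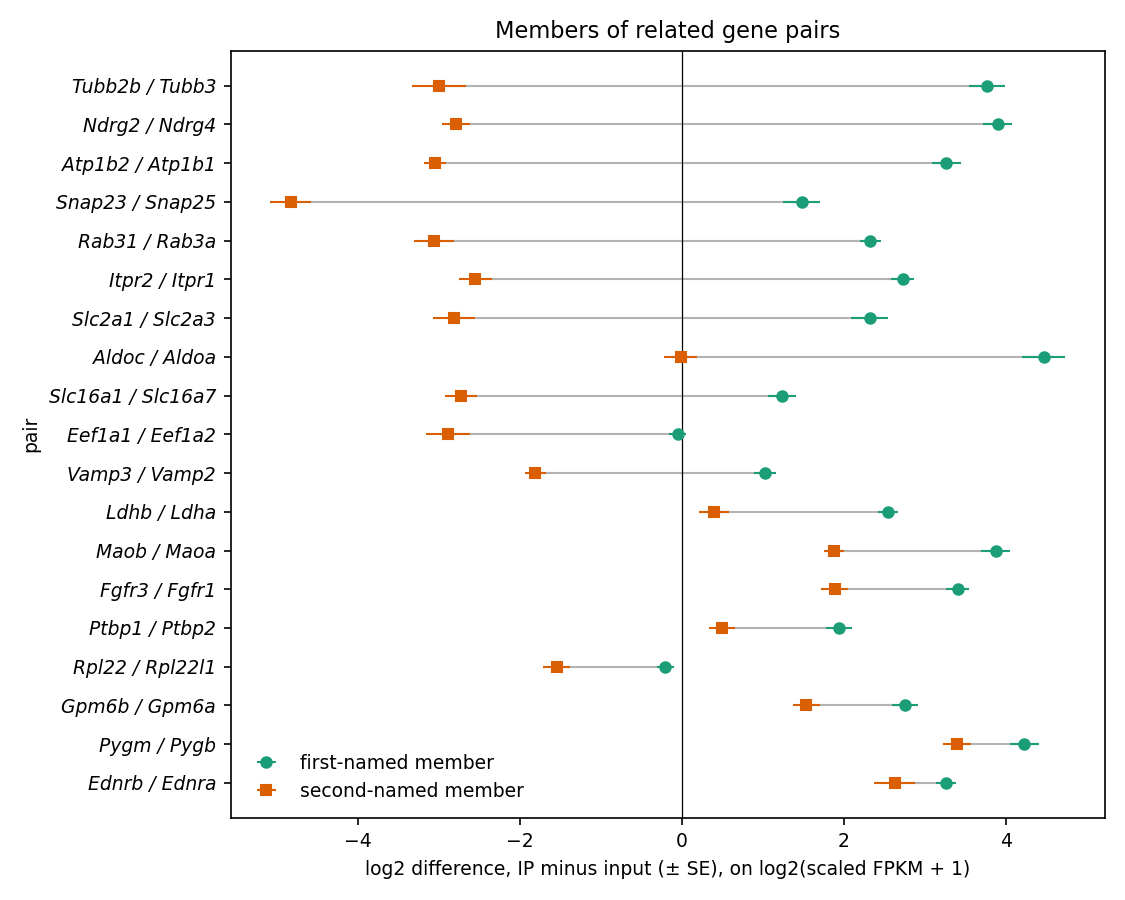
Log2 difference (IP minus input, ± SE) of both members of the 19 pairs whose members are both named in the text, ordered by the gap between them. The widest gap shown is that of Tubb2b at 3.77 and Tubb3 at -2.995; Ednrb and Ednra, at the bottom, lie closest together.

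Some genes used in every cell are given for comparison. Counts among them stand beside 28.6% higher and 37.1% lower of all tested genes. Eef1a1, an elongation factor, was 396, 392, 400.3 and 424 in the inputs and 402, 380.1, 377 and 398 in the IPs, and the groups overlapped (-0.05 ± 0.11, adjusted p = 0.691); unscaled it was called lower. Its neuronal paralog Eef1a2 fell from 25.1 to 2.55 (-2.89 ± 0.27). Of 23 proteasome subunit genes 6 were higher, 2 were lower and 15 did not pass, with a median of 0.20; unscaled, 0 were higher and 8 lower, and with factors from genes above 1 FPKM 3 and 4, so no direction holds for them. Of the 8218 tested genes with a mean of at least 5 in the higher fraction, 2708 (33.0%) differed by less than 0.5 on the log2 scale.

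The enrichment was compared with that in the striatum of the same 4 animals by the difference of the 2 differences. It was higher in hippocampus for 723 genes (5.37%) and lower for 1181 (8.77%). Striatal inputs had an estimated depth of 4.07 to 8.79 M fragments, against 8.86 to 12 M in hippocampal inputs. Low genes were thus measured less finely in striatal input, and the part of depth in these counts was not tested. The lower side was led by Crym, which binds thyroid hormone: Crym was 74.04, 64.3, 81.4 and 83.2 in hippocampal input and 5.01, 5.57, 12.1 and 10.8 in IP (-3.11 ± 0.23), but 2.66 ± 0.23 in striatum, a gap of -5.77 ± 0.33 (adjusted p = 5.09e-08). Gabbr2, a GABA-B receptor subunit, had -2.09 ± 0.17 in hippocampus and 1.43 ± 0.17 in striatum, and Pcdh20 -2.31 ± 0.17 and 1.02 ± 0.17. Dkk3, a secreted Wnt modulator, did not pass in hippocampus (from 172 to 216 (0.31 ± 0.19); called higher with the 8 hippocampal libraries alone, 0.47, adjusted p = 0.00664) and had 3.35 ± 0.19 in striatum. On the higher side stood Ppp1r1b, a gene of striatal neurons whose input level in striatum (332) is above that in hippocampus (11.4). It rose in hippocampal IP, 12.05, 12.5, 8.51 and 12.6 in the inputs and 74.4, 72.3, 63.9 and 80.6 in the IPs (2.58 ± 0.32, adjusted p = 2.36e-06), and had -1.44 ± 0.32 in striatum. Pde7b and Gucy1a3 likewise rose in hippocampus, from 8.89 to 25.4 (1.40 ± 0.14) and from 8.94 to 26.7 (1.49 ± 0.17). Serpinf1, a secreted neurotrophic factor, rose from 4.4 to 43.9 (3.04 ± 0.23) and Zic2 from 0.628 to 9.41 (2.68 ± 0.11), with 0.22 ± 0.23 and -0.08 ± 0.11 in striatum. Astrocyte markers had a median of 3.63 in striatum, and 1 of 30 differed between the regions. Of the pan-neuronal markers 7 of 18 fell further in hippocampus, where their median was -3.28 against -2.02; the part of carry-over in the region gap was not tested. Without animal 971 the counts were 276 and 487, and without animal 970 they were 370 and 588.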

How the data were processed

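Tables of hippocampal input and IP, with those of the striatum, were used as deposited, with 1 table for each library. The submitters' processing notes name bcl2fastq 2.17, STAR, HTSeq and the mm10 build; per the labels' protocols, libraries were made from 100 ng of RNA with the Ovation RNA-Seq System V2. The deposited values were taken to be FPKM from their behaviour and from the description used for this work; the labels do not name the unit, and the annotation is not given in the sources used here. In 94.0% of 2005 low genes, values were whole multiples of a step (tolerance 0.02), which gave the relative depth, 2.5-fold apart at most in hippocampus; its absolute size rests on gene lengths. The kit does not mark strand, so overlapping and antisense genes share fragments. Of 24060 labels, 27 had been turned into dates and are not named, and 22735 (94.5%) were found once in GENCODE M21.

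FPKM was divided by trimmed-mean factors computed with all 16 libraries (30% of log ratios and 5% of levels trimmed at each side). Genes with at least 1 FPKM in at least 4 of 16 libraries were kept. Of these, 295 were under 1 scaled FPKM in all 8 hippocampal libraries. All 16 libraries entered 1 fit of log2(scaled FPKM + 1) with 4 group terms and 12 residual degrees of freedom (limma 3.58.1, R 4.3.3, trended and robust variance), adjusted by Benjamini-Hochberg and called under 0.05. The labels pair IP and input by animal; deviations of the pair from their group means had a correlation across genes of 0.171, 0.086, 0.151 and 0.095 in 970, 971, 974 and 977, above that with any other animal's input, and the animal entered as a block in an alternative. Genes were named if they belonged to the 18 cell type lists, 16 function lists, 28 symbol families or 37 pairs, or were among the 25 largest rises or falls (called, same sign in 4 animals, mean of at least 5), the 20 highest levels per group or the 10 largest region differences per direction. Some genes that the rule names are not reported here, though counts over lists and pairs include them. Members and lists were chosen with earlier results of these data known. Figures were drawn with matplotlib.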

Additional observations from a re-analysis of the deposited data

Results flagged for a closer look

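For the named genes, a sample stood apart when its gap to the nearest of the other 3, as a share of the whole range of its group of 4, was above Dixon's 95% critical value. This held for 25 samples in 478 groups of hippocampal libraries (5.2%), and chance flags about 1 group in 20. Input 974 gave 8 of them and input 970 gave 6. Input 970 was highest for the astrocyte genes Slc1a3 (share 0.871, 86.8 against 66.1 to 68.7 in the others), Slc6a11 (0.868), Sox9 (0.847) and Scd2 (0.844) and for the granule cell gene C1ql2 (0.849), and lowest for Meg3 (0.865). Input 974 was lowest for Calm2 (0.867, 1457 against 2139 to 2244), Cst3 (0.904, 449 against 663 to 686), Celf4 (0.87), Tubb2b (0.836) and Ppp1r1b (0.871), and highest for Gabra5 (0.872), Olig2 (0.843) and Pdgfrb (0.912). Input 971 was lowest for Sox2 (0.942) and for the kinesin genes Kif5b (0.841) and Kif5c (0.889). Input 977 was highest for Ttr (0.873) and Syt11 (0.835) and lowest for Cat (0.907). Among the IPs, 974 was highest for Chgb (0.884), Dlg4 (0.905) and Sema5a (0.93), 970 for Spink8 (0.831) and 971 for Slc38a3 (0.901).

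For 64 of the 239 named genes the IP minus input difference itself differed between the regions (limma interaction term, Benjamini-Hochberg adjusted p under 0.05, 4 animals in each of 4 groups). Over all tested genes it was higher in hippocampus for 5.37% and lower for 8.77%, and 1 rule for naming genes took the largest such differences, so the 64 are partly fixed by that choice. The values are the hippocampal log2 difference minus the striatal one. Among genes that fell in both regions the fall was the larger there for Neurod6 (-2.71), Slc17a7 (-2.36), Cck (-1.95), Dcn (-1.94), Spink8 (-1.93), Sema5a (-1.35), Srrm4 (-1.3), Cpne4 (-1.28), Eef1a2 (-1.26), Gng3 (-1.24), Basp1 (-1.19), Atp1b1 (-1.13), Rab3a (-1.12), Acot7 (-1.08), Eif4e3 (-0.93), Dlg4 (-0.91), Cadm3 (-0.85), Prox1 (-0.77) and Fkbp5 (-0.73). Crym (-5.77), Gabbr2 (-3.51) and Pcdh20 (-3.32) fell in hippocampal IP and rose in striatal IP. Neurod1 (-2.72), C1ql2 (-2.63), Tubb3 (-2.51), Nr3c2 (-1.51), Elavl4 (-1.38) and Dcx (-1.09) fell in hippocampus and did not pass in striatum. Nfix (-1.67), Nfib (-1.2) and Sox4 (-0.86) rose in both regions, by more in striatum. Dkk3 (-3.05), Fezf2 (-1.8), Pvrl3 (-1.7) and Aldoa (-0.89) rose in striatum and did not pass in hippocampus.

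In the other direction, genes that rose in both regions and by more in hippocampus were Myoc (2.48), Id4 (2.29), Zfp521 (1.55), Hopx (1.53), Itgav (1.48), Serpine2 (1.26), Kcnj16 (1.23), Ctnna1 (1.16), Olig1 (1.0), Rfx4 (0.97), Gabrg1 (0.97), Gpm6b (0.92), Abcd2 (0.8), Tfrc (0.76), Msi2 (0.68), Nr3c1 (0.67), Vamp3 (0.64), Glud1 (0.6) and Ldhb (0.59). Serpinf1 (2.82), Zic2 (2.76), Cnp (1.03), Dsp (0.93) and Kif5b (0.83) rose in hippocampus and did not pass in striatum. Ppp1r1b (4.02), Gucy1a3 (3.2), Pde7b (3.14) and Olig2 (1.89) rose in hippocampal IP and fell in striatal IP. Pdyn (2.9) fell in striatum and did not pass in hippocampus.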

How the results depend on the processing

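Of 239 named genes, 18 changed call in at least 1 of up to 22 alternatives. The exception in direction was Rpl7, at -0.19 without scaling, and it did not pass without animal 970, 971 or 977 (0.25 to 0.29). Unscaled FPKM gave 2496 genes higher in place of 3853 and 7113 lower in place of 4993, the median of all genes shifting by 0.36; factors computed over genes above 1 FPKM in both libraries, chosen after seeing the data, gave 3504 and 5515. With the animal as a replicate block in the 16-library fit the counts were 3925 and 5122, and 8775 of the genes called without it were called. The 8 hippocampal libraries alone gave 5055 and 5046, or 5029 and 5070 with the replicate block. Leaving out an animal or a library gave 3391 to 4003 higher and 4285 to 4930 lower. For the difference between regions it gave 276 to 656 against 723, and 487 to 1116 against 1181; without animal 971 these were 276 and 487, and without animal 970 they were 370 and 588. The block gave 817 and 1334 there, and turned 2 of the named genes' calls, Ldha (adjusted p = 0.0216) and Ptgds (adjusted p = 0.0291), in the 16-library fit. Without scaling, Atp5b (0.19), Cacna2d2 (0.28), Ptbp2 (0.02), Sox4 (0.31) and Rn45s (0.84) did not pass, and Eef1a1 (-0.55), Pvrl3 (-0.56), Rpl22 (-0.59), Ptgds (-1.80) and Sucla2 (-0.80) were called lower. Ftl1 did not pass without animal 970 or 971, IP 974, or input 971 or 977 (-1.08 to -0.99), Wfs1 without animal 977 (-0.42), Ptbp2 without animal 970 or 971 (0.45 and 0.43), and Cacna2d2 (0.57) and Sox4 (0.56) without animal 971. Depth limits genes near 1 FPKM. There, 1 FPKM of a 2 kb gene is 17.7 to 44.4 fragments in the hippocampal libraries and 8.13 to 42.7 in the striatal ones.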

Other observations

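The remaining gene families are given here with example genes that were chosen after their values were seen. Over all tested genes 28.6% were higher and 37.1% lower, and counts near those shares set no family apart. Of translation initiation factors 21 of 52 were higher and 10 lower (unscaled 7 and 20). Eif2ak2, a kinase activated by double-stranded RNA, rose from 2.13 to 12.1 (2.08 ± 0.17) and Eif4e3 fell from 12.4 to 1.76 (-2.32 ± 0.16). Of tRNA synthetases 8 of 17 were higher and 2 lower (unscaled 2 and 6), and of ABC transporters 15 of 32 were higher and 8 lower (unscaled 8 and 11). The cholesterol exporter gene Abca1 rose from 4.11 to 30.04 (2.59 ± 0.17), and Abcg1 fell from 8.64 to 0.801 (-2.42 ± 0.15). Of kinesins 9 of 27 (33.3%) were higher and 12 (44.4%) lower. Kif5b, the broadly expressed form, rose from 41.7 to 94.5 (1.16 ± 0.16), whereas the neuronal forms Kif5a and Kif5c fell from 116 to 24.3 (-2.23 ± 0.18) and from 127 to 20.3 (-2.60 ± 0.12). Of Rab GTPases 18 of 49 (36.7%) were higher and 20 (40.8%) lower, and with the 8 hippocampal libraries alone 22 and 21. Of integrins 8 of 19 (42.1%) were higher and 8 (42.1%) lower, and of collagens 4 of 11 (36.4%) and 3 (27.3%), unscaled 3 and 5. Of semaphorins and plexins 10 of 24 (41.7%) were higher and 11 (45.8%) lower. Of 305 Zfp zinc finger genes 42 were higher and 120 lower, and 143 did not pass. Zfp521 rose from 2.06 to 18.4 (2.66 ± 0.12) and Zfp365 fell from 135 to 11.5 (-3.46 ± 0.28).

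Of 314 microRNA genes 2 (0.637%) were higher, 55 (17.5%) were lower and 257 did not pass. Of 66 small nucleolar RNA genes 3 (4.55%) were higher, 12 (18.2%) were lower and 51 did not pass. Both kinds were thus called less often in either direction than all tested genes (28.6% higher, 37.1% lower). Of 7 meningeal fibroblast markers tested 0 rose, 4 fell and 3 did not pass, and the matrix gene Dcn fell from 15.6 to 0.896 (-3.13 ± 0.15). Of 4 ependymal markers 1 rose, 2 fell and 1 did not pass. The 1 red blood cell marker tested, Alas2, had a mean of 1.64 in input and 1.83 in IP and did not pass.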
